A study of Mus musculus with 9 samples.

Results

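A set of 73 mouse genes had little polysome-bound mRNA in immature oocytes and a clear signal in mature eggs. The genes were chosen by their measured values: on the brightest probe set of each gene, the array intensity had to lie below 100 on all 3 arrays of the germinal vesicle (GV) stage and at 200 or more on all 3 arrays of metaphase II (MII). They are 73 of 18193 measured genes, or 0.401%, and 5 of them are predicted or carry a clone name. Because GV and MII values chose them, the difference between these stages is given only as a description. Metaphase I (MI), which lies between, did not enter either threshold, but its arrays entered the mean that picked the brightest probe set.

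Fully grown oocytes hardly transcribe, so the proteins that meiosis, fertilisation and the first cleavage need come from mRNAs made earlier and stored. Many stored mRNAs carry a short poly(A) tail and few ribosomes until maturation, when cytoplasmic polyadenylation and the removal of repressors bring them onto polysomes, while other mRNAs leave polysomes and decay. Polysomes are mRNAs loaded with several ribosomes, and their mRNA content is a measure of what is being translated.

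Polysome-bound mRNA was measured with Affymetrix mouse whole-genome arrays, 3 per stage and 9 in all. The GV group held prophase-arrested oocytes collected 0 h after human chorionic gonadotropin (hCG), the MI group oocytes collected 4 h after it and the MII group eggs collected 14 h after it. All mice had received PMSG, a gonadotropin that makes follicles grow, 48 h before hCG, and the sources used here give neither their strain nor their age or number. The labels call the arrays of a stage biological replicates from independent sample sets, but do not say that they came from separate animals, so p-values measure the spread between these samples only. For the MI samples the description field holds the word pGVB without an explanation. All values are intensities on a linear scale as deposited, with no unit, and the number of arrays limits their precision. More mRNA in the cell and more loading of the same mRNA both raise a polysome signal and cannot be told apart here, since total RNA was not analysed here. Nor can fewer cells of a type and less RNA per cell.

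Median intensities of the arrays were 12.39 to 13.22, and on each array 53.1% to 54.8% of probe sets read below 16. The summed intensity of 12 oocyte markers was 51269 to 56294 on GV arrays, 46133 to 50755 on MI arrays and 29724 to 36737 on MII arrays. Not every one of them was bright on every array. Figla had a mean of 1163 in GV but 15.48, 24.54 and 20.25 on the MII arrays, and Ddx4 read 15.98 on MI 3. The summed signal of 15 granulosa and theca markers was 1108 to 1423, 839.6 to 1308 and 724.5 to 1098 at these stages, and at MII 5 of the 15 lay below 16 on every array. The sum of 11 cumulus expansion markers was 109 to 157 on GV arrays, 176 to 546 on MI arrays and 125 to 176 on MII arrays, with the highest value on MI 3. Among 9 blood, immune and endothelial markers the sum was 174 to 363, 123 to 625 and 622 to 888. Pecam1 made up most of it at MII, with 298, 91.6 and 182 in GV, 44, 79.9 and 442 in MI and 569, 627 and 785 in MII, and 5 of the 9 markers lay below 16 on every MII array, namely Cd74, Cdh5, Itgam, Lyz2 and Ptprc. None of these marker genes was in the recruited set, and whether other cells contributed to its values was not tested.

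**Figure D1:**
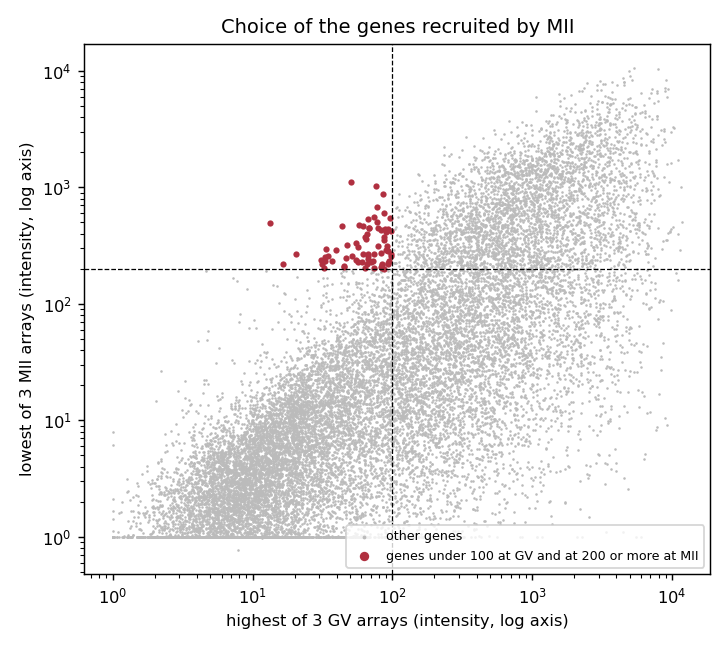
Each point is a gene, placed by the highest of its 3 GV intensities (horizontal, log axis) and the lowest of its 3 MII intensities (vertical, log axis), with dashed lines at 100 and 200. The 73 genes of the set fill the upper left corner and reach down to both thresholds without a gap.

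Whether these genes were silent at GV cannot be told from the intensities, since the deposited table has no detection calls. The mean GV intensity of the 73 genes ran from 9.72 to 84.7 with a median of 41.2, close to the median of all genes at GV, which was 45.3. On 24 genes at least 1 GV array lay below 16, but Cyp4v3 was the only gene with all 3 GV arrays below 16. In MII the means ran from 226 to 1552 with a median of 397, which is above 81.1% of all genes, where the median was 37.1. The fold of the MII mean over the GV mean was 3.53 to 51.7 with a median of 10.2. Genes of this kind were a small share of both pools, being 0.755% of the 9668 genes below 100 on all GV arrays and 1.98% of the 3692 genes at 200 or more on all MII arrays. The opposite pattern, 200 or more on every GV array and below 100 on every MII array, was met by 276 genes.

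Genes lay close to the thresholds on both sides. Just inside the GV threshold, the highest GV array read 97.5 for Spred1, 97.4 for Lrif1, 97.0 for Tmem68 and 96.8 for Skp2. Just outside it, the values were 100.2 for Srek1ip1, 103 for Zfp618, 103 for Ap5m1 and 104 for Frmpd1, and Srek1ip1 had 985, 763 and 1024 on its MII arrays. Just inside the MII threshold, the lowest MII array read 201 for Cftr, 203 for Tcerg1l, 203 for Suox and 204 for Msantd2, and just outside it 198 for Atxn3, 196 for Pgm2, 196 for Zc4h2 and 195 for Arhgap18. GV 1 was the highest of the GV arrays for 43 of the 73 genes, against 39.8% of other genes with signal. Those other genes had a GV mean at or above 50.7, while the median GV mean of the 73 was 41.2, so the signals compared are unlike. Without GV 1 or GV 2 the rule was met by 166 or 114 genes, though with an array left out the count cannot fall.

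**Figure D2:**
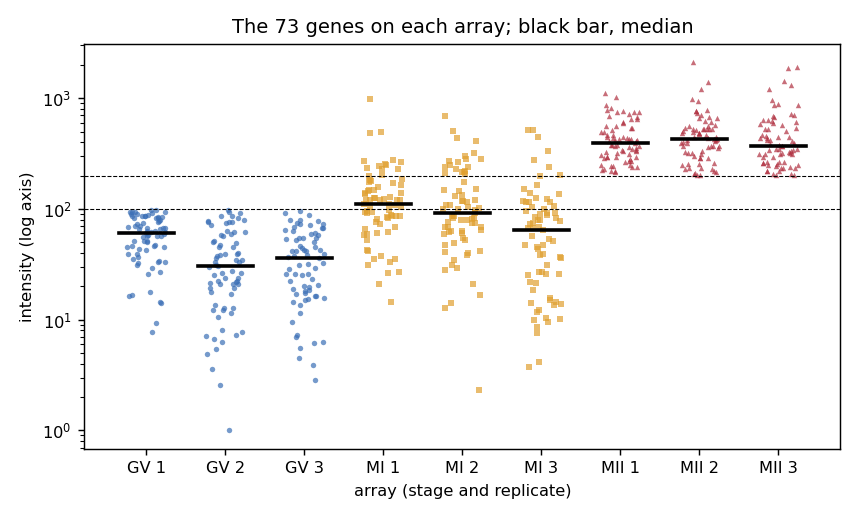
Intensity of the 73 genes (points, log axis) on each of the 9 arrays, with the median of each array as a black bar and dashed lines at 100 and 200. The GV arrays lie below 100 and the MII arrays above 200 by the choice of genes, and the MI medians of 111, 92.6 and 64.7 lie between them.

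The MI arrays ask whether these mRNAs were already on polysomes 4 h after hCG. The mean of the 3 MI arrays had a median of 98.3 over the genes and ran from 17.9 to 594. On the log2(intensity + 16) scale it lay above the GV mean in 64 of 73 genes, and the MII mean lay above the MI mean in all 73. On that scale, the MI mean stood at a median of 31.0% of the way from GV to MII. It stood below 25% in 25 genes, between 25% and 75% in 47 and above 75% in 1, Mitd1, and in 9 genes it lay below the GV mean. The MI 3 array read lower than the other MI arrays, with 7 of the 73 genes at 200 or more, against 13 on MI 1 and 19 on MI 2.

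By the limits used to choose the genes, 4 were present at MI (200 or more on all 3 arrays), 19 were low (below 100 on all 3) and 50 lay between or varied among the arrays. The 4 were Arl14ep, Copg2, Mitd1 and the predicted gene Gm4981, which had 59.1, 76.96 and 60.8 in GV, 986, 284 and 511 in MI and 1023, 1411 and 1929.5 in MII. Of the 9595 other genes below 100 on all GV arrays, 4 were present at MI (0.0417%) and 90.1% were low. Among the 903 of these whose mean signal reached the median of all genes, 0.443% were present and 37.7% were low, against 5.48% and 26.0% of the recruited genes. Of the 3619 other genes at 200 or more on all MII arrays, 76.0% were present at MI. These shares are descriptions, since a gene chosen for a high MII value may differ from other genes in its signal as a whole.

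From GV to MI limma called 0 of the 73 genes and 0.0% of all 18193 after Benjamini-Hochberg adjustment. At an unadjusted p under 0.05, 29 of the 73 were higher in MI than in GV, against 3.74% of all genes, and the median log2 difference over the 73 was 0.90, against 0.01 over all genes. All 3 MI arrays lay above all 3 GV arrays in 24 of 73 genes, against 6.44% of all genes and 15.7% of the other GV-low genes with signal at or above the median. Without MI 3 the count was 45, against 14.2% of all genes. GV arrays that were required to be low enter each of these counts, which favours a higher MI value, so they are read only as a description.

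The smallest p from GV to MI belonged to Zfp606, a zinc finger gene. It had 51.8, 50.8 and 38.7 in GV, 229.7, 217 and 153 in MI and 411, 325 and 258 in MII, and the 3 stages did not overlap. The MI minus GV difference did not pass (log2 difference 1.76, adjusted p = 0.195). Arl14ep, whose human protein links a small GTPase to the actin motor of vesicles, had 50.9, 8.11 and 41.97 in GV, 249, 212 and 332 in MI and 1115, 2106 and 1435 in MII. Its stages did not overlap either, and its MI minus GV difference did not pass (log2 difference 2.61, adjusted p = 0.195).

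Mitd1 acts with ESCRT-III at the midbody in the last step of cell division. It had 79.2, 45.5 and 26.1 in GV, 203, 501 and 276 in MI and 429.9, 391 and 316 in MII. All MI arrays lay above all GV arrays, and MI and MII arrays overlapped. Its MI minus GV difference did not pass (log2 difference 2.36, adjusted p = 0.195), and the MII mean exceeded the MI mean by 0.29 log2 units (SE 0.40). Duxf3 is a double homeobox gene that switches on genes of the cleavage embryo. It had 16.8, 33.1 and 25.9 in GV, 188, 108 and 118 in MI and 250.4, 487 and 314 in MII, with no overlap between stages and no call for MI minus GV (log2 difference 1.88, adjusted p = 0.196). Duxf3 belongs to a family of near-identical repeated copies, so its probes may read several of them. The annotated start of Gm4981 lies near that of Duxf3 on the minus strand of chromosome 10. Whether the probe sets of these 2 members read the same mRNAs was not tested.

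From MI to MII, limma called 43 of the 73 genes higher and 0 lower and did not call 30, beside 2.52% of all genes called higher and 6.83% lower. The MII arrays of the 73 were required to be high, so nothing is read from this count. Scaling moved that background, since 27.0% of all genes called were higher as deposited, 41.7% after quantile normalization and 40.7% with a common 95th percentile, and the 43 genes were called under each of these. The log2 difference of the 43 ran from 1.20 to 4.18, and over all 73 the median was 2.02, against -0.02 for all genes. All 3 MII arrays lay above all 3 MI arrays in 60 of the 73, against 11.6% of all genes. The count of calls from MI to MII was 25 without MII 1, 27 without MII 2, 21 without MII 3 and 26 with a pseudocount of 1. The share of all genes called higher also fell in these fits, to 1.29%, 1.41%, 0.989% and 1.03%. Since this test is no support for the choice of genes, the genes below are described by their array values and by the limma estimate of the MII minus MI difference on the log2(intensity + 16) scale with its standard error (SE), and none of these differences is given as a test result.

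**Figure D3:**
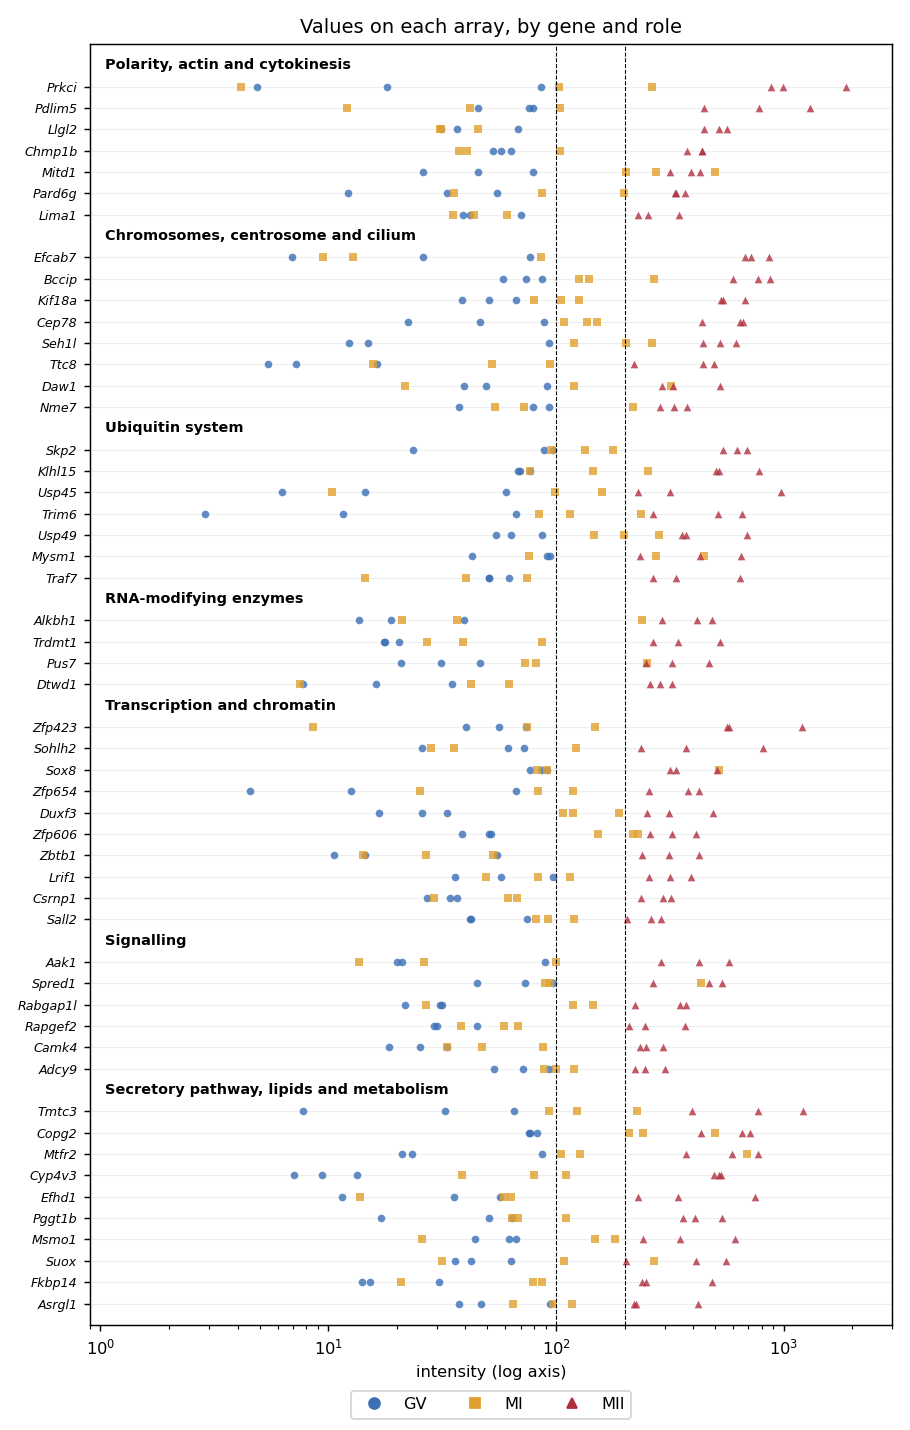
Intensity on each array (horizontal, log axis) of the 52 genes to which a role was given, 1 line per gene, grouped by role and ordered by MII mean, with circles for GV, squares for MI and triangles for MII and dashed lines at 100 and 200. In Llgl2, Lima1, Efcab7 and Traf7 the MI squares overlap the GV circles and all lie below 100, whereas in Mitd1 and Copg2 they all lie above 200.

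The first bases of an mRNA bear on its translation, because mRNAs of ribosomal proteins start with a C followed by a run of C and T, the terminal oligopyrimidine tract that ties their translation to growth signals. The 46 measured ribosomal protein genes had a median log2 difference MII minus GV of -3.40. Annotated start sites of RefSeq on GRCm38.p6 were matched for 63 of the 73 genes, for 14368 of all genes and for 40 of the ribosomal protein genes, and read on the transcribed strand. A start with C followed by at least 4 bases that are each C or T was found in 1 of the 63 (1.59%), in 2.94% of all genes and in 8 of the 40 (20%). The windows printed here hold 15 bases before the start and 15 from it, with the tract in capitals. They show 3 members whose starts hold no such tract, then Zfp423, the member that has it at 1 of its 2 annotated starts. Rpl38, printed last, is 1 of the 8 ribosomal protein genes in which it was found.
Prkci: ggaggagccgcggcgggaggcgtgttgtgc
Kif18a: ctctggcgccaaactgcgagtcgctcagga
Bccip: acgggggcgggactcgcgcaggcgcagtgt
Zfp423: gggaagtgcctgtctCCCCCTTgcctgccc
Rpl38: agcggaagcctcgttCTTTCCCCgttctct
In the order printed, these lie at chr3:30995756-30995785 (plus strand), chr2:109280723-109280752 (plus), chr7:133709318-133709347 (plus), chr8:87804425-87804454 (minus) and chr11:114668565-114668594 (plus). Annotated starts are not measured starts in oocytes, and a window without the tract says only that these letters are not there. The reading found the tract in only 20% of the ribosomal protein genes, so the share among the 63 says little about the members.

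The set held 7 genes of cell polarity, actin and cytokinesis. Oocytes divide asymmetrically, and the cortex above the spindle is set apart by a conserved module. In it an atypical protein kinase C binds a PAR-6 protein and is opposed by Lgl proteins. Prkci, the atypical kinase, had 85.9, 4.88 and 18.1 in GV, 264, 103 and 4.14 in MI and 876, 992 and 1874 in MII. Its MII arrays lay far above all others, while its MI arrays spread from 4.14 to 264. In Prkci, MII exceeded MI by 3.77 log2 units (SE 0.97).

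Pard6g, a PAR-6 protein, had 33.2, 12.2 and 55.1 in GV, 199, 86.6 and 35.7 in MI and 338, 367 and 332 in MII. Its MII arrays lay within a narrow range above all others. In Pard6g, MII exceeded MI by 1.79 log2 units (SE 0.53). Llgl2, an Lgl protein, had 36.8, 31.3 and 67.95 in GV, 31.3, 30.9 and 45.3 in MI and 448, 565 and 522 in MII. Its MI and GV arrays overlapped, and every MII array was at 448 or more. In Llgl2, MII exceeded MI by 3.35 log2 units (SE 0.27).

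These 3 genes were the members found in a list of 34 measured genes of actin, polarity and cytokinesis. Of the list's 31 genes outside the set, 3 rose from MI to MII, 1 fell and 27 did not pass. Over all genes, 2.52% were higher and 6.83% lower. The median log2 difference of the 31 was 0.46, against -0.02 over all genes. Pard6b, a further PAR-6 gene, had means of 409.6 in GV, 587 in MI and 1558 in MII and rose (log2 difference 1.47, adjusted p = 0.0491), but did not pass once any 1 of the 9 arrays was left out (adjusted p between 0.0534 and 0.15), with a pseudocount of 1 (adjusted p = 0.121), without the lowest-signal genes (adjusted p = 0.0531) or with the replicate block (adjusted p = 0.0775). Dlg1, a polarity scaffold, had means of 126 in GV, 214 in MI and 1158 in MII and rose (log2 difference 2.68, adjusted p = 0.036), but did not pass once GV 1, MI 2, MI 3, MII 1, MII 2 or MII 3 was left out (adjusted p between 0.0579 and 0.112) or with a pseudocount of 1 (adjusted p = 0.0537). Wasl, an activator of actin branching, had means of 894 in GV, 374 in MI and 973 in MII and rose (log2 difference 1.36, adjusted p = 0.0236), but did not pass once MI 2, MI 3, MII 1 or MII 2 was left out (adjusted p between 0.0505 and 0.0705) or with a pseudocount of 1 (adjusted p = 0.103). The gene that fell was Cfl1, the actin-severing cofilin, with means of 6322 in GV, 5678 in MI and 908 in MII (log2 difference -2.67, adjusted p = 0.00328). Pard6b, Dlg1 and Wasl were above 100 in their GV mean and so lie outside the recruited set.

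Further members of this role act on actin and membranes. Pdlim5, an adaptor that tethers kinases to actin, had 45.5, 76.4 and 79.2 in GV, 105, 42.1 and 12.1 in MI and 447, 778 and 1309 in MII. Its MI and GV arrays overlapped, and its MII arrays spread widely above them. In Pdlim5, MII exceeded MI by 3.76 log2 units (SE 0.57). Lima1, an actin-bundling LIM protein, had 70.1, 39.1 and 41.98 in GV, 35.3, 60.9 and 43.9 in MI and 228, 252 and 347 in MII. Most of its MI arrays lay within the GV range and all of its MII arrays above it. In Lima1, MII exceeded MI by 2.22 log2 units (SE 0.28). Chmp1b, a subunit of the ESCRT-III membrane scission machinery, had 57.4, 63.6 and 52.6 in GV, 37.4, 40.8 and 104 in MI and 377, 436 and 436 in MII. Its MI and GV arrays overlapped, unlike those of Mitd1 above, and MII exceeded MI by 2.60 log2 units (SE 0.32).

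Genes of chromosomes, centrosome and cilium made up 8 members. Kif18a, the kinesin that damps chromosome movements at the metaphase plate, had 50.9, 38.7 and 66.9 in GV, 105, 79.8 and 127 in MI and 539, 531 and 678 in MII. The 3 stages did not overlap, with the wider gap between MI and MII. In Kif18a, MII exceeded MI by 2.33 log2 units (SE 0.25). It was the member among 43 measured spindle, kinetochore and motor genes. Of the other 42, 7 fell from MI to MII and 35 did not pass, beside 2.52% of all genes higher and 6.83% lower.

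Bccip, a partner of the repair protein BRCA2, had 74.1, 86.4 and 58.4 in GV, 126, 269.6 and 139 in MI and 601, 768 and 868 in MII. Its stages were likewise apart, and MII exceeded MI by 2.03 log2 units (SE 0.31). Seh1l, a nuclear pore subunit that also acts at kinetochores, had 92.99, 12.3 and 14.98 in GV, 119.9, 265 and 203 in MI and 615, 524 and 442 in MII. All of its MI arrays lay above all GV arrays and below all MII arrays, and MII exceeded MI by 1.41 log2 units (SE 0.53).

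Among 81 measured genes of the cilium and centrosome, 3 were members. Of the other 78, 1 rose from MI to MII, 3 fell and 74 did not pass, beside 2.52% of all genes higher and 6.83% lower. Efcab7, a partner of the EVC proteins of primary cilia, had 77.02, 26.2 and 6.96 in GV, 85.98, 12.8 and 9.47 in MI and 716, 673 and 861 in MII. Its MI and GV arrays overlapped, with MI 1 and GV 1 the high array of each stage. Efcab7 had the largest MII minus MI difference of the 73 genes, at 4.18 log2 units (SE 0.64). Ttc8, a subunit of the BBSome that carries ciliary cargo, had 16.5, 5.46 and 7.25 in GV, 93.8, 52.2 and 15.7 in MI and 496, 443 and 219 in MII. MII 3 was the low MII array. In Ttc8, MII exceeded MI by 2.62 log2 units (SE 0.49). Cep78, a centriole protein, had 46.4, 22.5 and 89.04 in GV, 108, 152 and 137 in MI and 436, 664 and 640.2 in MII, with no overlap between stages. In Cep78, MII exceeded MI by 1.99 log2 units (SE 0.37).

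Nme7, a kinase of the gamma-tubulin ring complex, had 93.5, 37.7 and 79.3 in GV, 72.4, 217 and 53.8 in MI and 330.2, 286 and 375 in MII, and MII exceeded MI by 1.61 log2 units (SE 0.47). Daw1, an assembly factor of ciliary dynein, had 91.04, 49.5 and 39.5 in GV, 120.3, 318 and 21.8 in MI and 292, 527 and 326 in MII, and MII exceeded MI by 1.68 log2 units (SE 0.72). In both, MI 2 was the highest MI array and lay apart from the other MI arrays.

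The ubiquitin system held 7 members: the ligase components Skp2, Klhl15, Trim6 and Traf7 and the deubiquitinases Usp45, Usp49 and Mysm1. Skp2, the F-box protein that marks the CDK inhibitor p27 for destruction, had 88.9, 23.7 and 96.8 in GV, 177, 134 and 95.1 in MI and 688, 542 and 622 in MII. Its MII arrays lay close together and above all others. In Skp2, MII exceeded MI by 2.09 log2 units (SE 0.42). Klhl15, an adaptor of cullin ligases, had 69.8, 77.1 and 68.3 in GV, 253, 146 and 77.2 in MI and 775, 521 and 505 in MII. All MI arrays lay above all GV arrays, though MI 3 and GV 2 nearly met. In Klhl15, MII exceeded MI by 1.92 log2 units (SE 0.38). Traf7, a RING-domain protein, had 62, 50.6 and 50.8 in GV, 14.4, 40.2 and 74.6 in MI and 266, 336 and 639.9 in MII. Its MI arrays were spread around the GV range, and MII exceeded MI by 2.90 log2 units (SE 0.45).

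Trim6, a tripartite-motif ligase, had 67.03, 11.6 and 2.87 in GV, 84.3, 237 and 115 in MI and 512, 656 and 267 in MII, and MII exceeded MI by 1.64 log2 units (SE 0.62). Usp49, which acts on histone H2B, had 63.3, 86.8 and 54.3 in GV, 147, 283 and 199 in MI and 373, 356 and 693 in MII, and MII exceeded MI by 1.10 log2 units (SE 0.34). Mysm1, which acts on histone H2A, had 94.5, 91.2 and 42.9 in GV, 275, 76.2 and 445 in MI and 648, 429 and 234 in MII, and MII exceeded MI by 0.86 log2 units (SE 0.63). Its MI 1 and MI 3 values lay within the MII range. Usp45, the further deubiquitinase, had 60.2, 6.25 and 14.5 in GV, 159, 98.96 and 10.3 in MI and 316, 228 and 969 in MII, with MII 3 far above the other MII arrays. In Usp45, MII exceeded MI by 2.41 log2 units (SE 0.83). Of 51 measured Usp genes, 2 were members.

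Enzymes that modify RNA, mostly transfer RNA, formed a group of 4. Trdmt1, which methylates a cytosine of tRNA, had 17.6, 17.7 and 20.5 in GV, 27.1, 87.05 and 38.9 in MI and 342, 526 and 266 in MII. The stages did not overlap. In Trdmt1, MII exceeded MI by 2.60 log2 units (SE 0.37). Dtwd1, which in human cells modifies a uridine of tRNA, had 7.72, 34.9 and 16.2 in GV, 42.3, 61.95 and 7.50 in MI and 322, 286 and 259 in MII. Overlap was seen between MI and GV arrays but not with MII, and MII exceeded MI by 2.68 log2 units (SE 0.47). Pus7, a pseudouridine synthase of tRNA and mRNA, had 46.4, 20.9 and 31.4 in GV, 81.5, 251 and 73.2 in MI and 469, 248 and 322 in MII. Its MI 2 value reached the lowest MII array, and MII exceeded MI by 1.40 log2 units (SE 0.46) in the mean. Alkbh1, a dioxygenase that acts on methylated tRNA, had 39.5, 13.6 and 18.96 in GV, 21.1, 238 and 36.9 in MI and 292, 483 and 415 in MII. MI 2 was again the high MI array, and MII exceeded MI by 2.35 log2 units (SE 0.67).

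Transcription and chromatin accounted for 10 genes. Zfp423, a zinc finger regulator of BMP signalling, had 56.1, 40.1 and 73.8 in GV, 148, 74.6 and 8.58 in MI and 561, 576 and 1199 in MII. Its MI arrays spread from below to above the GV range. In Zfp423, MII exceeded MI by 3.38 log2 units (SE 0.66). Zbtb1, a zinc finger repressor, had 14.6, 10.6 and 54.99 in GV, 52.8, 14.2 and 26.97 in MI and 424, 315 and 239 in MII, and MII exceeded MI by 2.90 log2 units (SE 0.46). Csrnp1, a nuclear protein of early response, had 27.1, 34.4 and 36.9 in GV, 61.8, 29.1 and 67.4 in MI and 295, 235 and 319 in MII, and MII exceeded MI by 2.16 log2 units (SE 0.28). In both, MI and GV arrays overlapped and MII arrays lay apart. Sohlh2, a germ cell factor of early follicles, had 25.7, 61.4 and 72.2 in GV, 35.6, 28.2 and 122 in MI and 811, 371 and 235 in MII, with MII values that spread more than 3-fold. In Sohlh2, MII exceeded MI by 2.67 log2 units (SE 0.58).

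Lrif1, which binds heterochromatin protein 1, had 57.3, 97.4 and 36 in GV, 83.5, 49.2 and 115 in MI and 393, 318 and 256 in MII, with overlap of MI and GV. In Lrif1, MII exceeded MI by 1.82 log2 units (SE 0.37). Sall2, a spalt zinc finger, had 42.3, 74.3 and 41.8 in GV, 120.2, 92.6 and 81.97 in MI and 288, 259.99 and 205 in MII, with no overlap between stages. In Sall2, MII exceeded MI by 1.22 log2 units (SE 0.26). Sox8, an HMG-box factor, had 85.8, 76.7 and 91.7 in GV, 91.2, 82.7 and 517 in MI and 335, 509 and 316 in MII, and its MI 3 value exceeded every MII array. In Sox8, the MII mean exceeded the MI mean by 1.15 log2 units (SE 0.60). Zfp654 had 67.04, 12.6 and 4.53 in GV, 119, 83.6 and 25.3 in MI and 380.2, 255 and 423 in MII, and MII exceeded MI by 2.14 log2 units (SE 0.60). Of 336 measured Zfp genes, 3 were members (0.893%), and of 45 early embryo and pluripotency factors 1, Duxf3.

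The set held 6 members of signalling. Camk4, a kinase switched on by calcium and calmodulin, was the member among 32 measured genes of egg activation and fertilisation. It had 33.1, 25.4 and 18.6 in GV, 33.4, 47.3 and 87.7 in MI and 247, 234 and 296 in MII. The stages did not overlap, though the lowest MI and highest GV arrays nearly met. In Camk4, MII exceeded MI by 2.00 log2 units (SE 0.30). Of the other 31 genes of that list, 9 fell from MI to MII and 22 did not pass. Over all genes, 2.52% were higher and 6.83% lower. Rapgef2, an activator of Rap GTPases, had 29.1, 29.9 and 44.95 in GV, 68.5, 58.9 and 38.1 in MI and 246, 369 and 209 in MII. The MI 3 value lay within the GV range, and MII exceeded MI by 2.02 log2 units (SE 0.29).

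Adcy9, an adenylyl cyclase, had 92.9, 71.7 and 53.3 in GV, 88.3, 119.6 and 99.6 in MI and 222, 302 and 246 in MII, the smallest fold of MII over GV in the set at 3.53. In Adcy9, MII exceeded MI by 1.20 log2 units (SE 0.24). Aak1, a kinase of clathrin adaptors, had 89.9, 21.1 and 20.01 in GV, 26.4, 100 and 13.7 in MI and 426, 288 and 573 in MII, with overlap of MI and GV. In Aak1, MII exceeded MI by 3.03 log2 units (SE 0.61). Spred1, a brake on Ras signalling, had 97.5, 44.9 and 72.9 in GV, 94.2, 433 and 89.2 in MI and 536, 469 and 266 in MII, and MII exceeded MI by 1.29 log2 units (SE 0.58). MI 2 lay within its MII range. Rabgap1l, a Rab GTPase-activating protein, had 30.96, 21.8 and 31.6 in GV, 145, 119 and 26.8 in MI and 350.3, 222 and 373 in MII, and MII exceeded MI by 1.73 log2 units (SE 0.49).

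The secretory pathway, lipid handling and metabolism held 10 members. Cyp4v3, a fatty acid hydroxylase, had 9.38, 7.08 and 13.4 in GV, 110.4, 38.6 and 80.2 in MI and 494, 522 and 532 in MII. It had the largest fold of MII over GV in the set, 51.7, a narrow MII range and no overlap between stages. In Cyp4v3, MII exceeded MI by 2.61 log2 units (SE 0.31). Pggt1b, a subunit of a protein prenyltransferase, had 50.8, 17.1 and 64.3 in GV, 111, 63.96 and 67.8 in MI and 362, 409 and 536 in MII. Its MI and GV arrays overlapped slightly, and MII exceeded MI by 2.24 log2 units (SE 0.37). Tmtc3, a mannosyltransferase of the endoplasmic reticulum, had 65.7, 7.72 and 32.7 in GV, 123, 227 and 92.8 in MI and 767, 1216 and 394 in MII, with no overlap between stages. In Tmtc3, MII exceeded MI by 2.25 log2 units (SE 0.57).

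Copg2, a coat subunit of Golgi vesicles, had 76.03, 82.6 and 77.2 in GV, 497, 209 and 241 in MI and 655, 712 and 433 in MII. It was present at MI by the limits above, and its MI and MII arrays overlapped. In Copg2, the MII mean exceeded the MI mean by 0.96 log2 units (SE 0.35). Efhd1, a calcium-binding mitochondrial protein, had 35.5, 56.7 and 11.6 in GV, 58.99, 63.4 and 13.8 in MI and 748, 229 and 344 in MII, and MII exceeded MI by 2.86 log2 units (SE 0.58). Fkbp14, a prolyl isomerase of the endoplasmic reticulum, had 14.02, 30.7 and 15.2 in GV, 86.7, 20.9 and 79.5 in MI and 238, 483 and 249 in MII, and MII exceeded MI by 2.18 log2 units (SE 0.46). In both, 1 or more MI arrays lay within the GV range. Mtfr2, a mitochondrial fission regulator, had 86.4, 21.01 and 23.3 in GV, 128, 689.7 and 106 in MI and 372, 774 and 590.01 in MII, with MI 2 within the MII range, and the MII mean exceeded the MI mean by 1.30 log2 units (SE 0.71). Suox, the sulfite oxidase, Msmo1, a demethylase of cholesterol synthesis, and Asrgl1, an asparaginase, were the other members of this role, with MII minus MI log2 differences of 1.67, 1.81 and 1.45.

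The remaining 21 genes fell in no shared role. Arl14ep had the highest MII mean of the set. In Arl14ep, MII exceeded MI by 2.46 log2 units (SE 0.43). Nt5dc1, a nucleotidase-like protein, had 57.9, 33.2 and 28.6 in GV, 176, 34.9 and 21.3 in MI and 756, 477 and 887 in MII. MI 2 and MI 3 lay within or below its GV range. In Nt5dc1, MII exceeded MI by 3.30 log2 units (SE 0.59). Tmc7, a transmembrane channel-like protein, had 68.4, 7.28 and 6.21 in GV, 66.2, 176 and 47.03 in MI and 675, 946 and 451 in MII, with overlap of MI and GV. In Tmc7, MII exceeded MI by 2.76 log2 units (SE 0.62). Tmem68, an acyltransferase-like membrane protein, had 96.99, 6.70 and 9.46 in GV, 488, 298 and 68.4 in MI and 751, 424 and 723 in MII. Its MI 1 array lay above its lowest MII array, and the MII mean exceeded the MI mean by 1.41 log2 units (SE 0.80).

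Thsd7b, a thrombospondin-domain protein, had 43.8, 3.58 and 5.56 in GV, 139.7, 68.5 and 91.2 in MI and 466, 731 and 599 in MII, with no overlap between stages. In Thsd7b, MII exceeded MI by 2.43 log2 units (SE 0.46). Cftr, the chloride channel, had 87.01, 79.7 and 3.87 in GV, 41.5, 2.32 and 9.87 in MI and 328, 201 and 417 in MII. Its MI arrays all lay below the higher pair of GV arrays. In Cftr, MII exceeded MI by 3.40 log2 units (SE 0.70). Tmem123, a sialomucin of the membrane, had 84.05, 38.9 and 58.9 in GV, 139, 102 and 3.74 in MI and 216, 214 and 249 in MII, and MII exceeded MI by 1.77 log2 units (SE 0.70).

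The other named genes without a shared role are given by their differences. In Fam172a, MII exceeded MI by 3.04 log2 units (SE 0.78). In Abhd18, MII exceeded MI by 1.76 log2 units (SE 0.41). In Ccdc34, a coiled-coil protein, the difference was 2.59 log2 units (SE 0.53). In Tcerg1l, MII exceeded MI by 2.60 log2 units (SE 0.51). In Zc3h18, a zinc finger protein of RNA processing, it was 1.89 log2 units (SE 0.47). All 5 of these had MI arrays that overlapped their GV arrays and none that reached their MII arrays. In Msantd2, MII exceeded MI by 1.72 log2 units (SE 0.58), and in Csmd3 by 0.81 log2 units (SE 0.68).

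Most of the functional lists held no member. The set is 0.401% of all genes, so 0 members in lists of these sizes is near the background. Their counts from MI to MII stand beside 2.52% of all genes higher and 6.83% lower. There were 0 among 36 regulators of M phase and the checkpoint, of which 2 rose from MI to MII and 8 fell, and 0 among 15 genes that textbook accounts give as polyadenylated at maturation, of which 4 rose and 2 fell. From GV to MII, 11 of these 15 rose and 2 fell, with a median log2 difference of 1.33, against 5.52% of all genes higher and 8.94% lower. There were 0 among 47 RNA-binding and decay factors, where 5 rose and 5 fell, and 0 among 55 genes of replication licensing, where 5 rose and 11 fell. Lists of chromatin modifiers (74 measured), DNA repair (69), the ER and Golgi (93), lipid metabolism (74) and the meiotic axis (25) also had 0 members. Prkci was the member among 88 signalling kinases and phosphatases, and of the other 87, 6 rose and 3 fell. These counts are given as a description.

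Cd247, a chain of the T cell receptor complex, had 45.1, 22.5 and 17.03 in GV, 231, 131 and 57.2 in MI and 434, 209.6 and 297 in MII. Its MI and MII arrays overlapped, and the MII mean exceeded the MI mean by 1.19 log2 units (SE 0.48). Cd209c, a lectin gene of the DC-SIGN family, had 33.7, 19.3 and 25.3 in GV, 171, 80.1 and 47.4 in MI and 296, 402 and 349 in MII. Its stages did not overlap. In Cd209c, MII exceeded MI by 1.80 log2 units (SE 0.38). The blood, immune and endothelial marker sums given above reached 622 to 888 on MII arrays. Pecam1 alone made up 569, 627 and 785 of them, so these sums say little of the other markers. Whether other cells contributed to the values of Cd247 and Cd209c was not tested.

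Other probe sets of the same genes read the same RNA but were not chosen by the thresholds. The genes were chosen on these same GV and MII arrays, which favours a higher MII value on their other probe sets too. The shares below are therefore a description. Of the 73 genes, 42 had a total of 93 other probe sets and 31 had none. On the log2(intensity + 16) scale the MII mean was above the GV mean in 71 of the 93, or 76.3% (exact 95% interval 66.4% to 84.5%, for counting error only), against 53.3% of the other probe sets of all genes. Probe sets differ in brightness. The MI arrays entered neither threshold, but did enter the mean over 9 arrays that set the brightest probe set apart. By the mean of the MI arrays, 34 of the 93 lay at or above the all-gene MI median of 44.9. Of these, 33 had the higher mean in MII, or 97.1%, against 53.7% over all genes at that signal. Of the 59 dimmer ones 38 did, or 64.4%. By the mean over all 9 arrays, 36 lay at or above the all-gene median of 50.7 and 35 of them had the higher mean in MII, or 97.2%, against 55.0% over all genes, but that mean includes the MII arrays and so partly fixes the share. All 3 MII arrays lay above all 3 GV arrays in 25 of the 93, against 13.5% of the other probe sets of all genes. On the log2 scale, the exception by either mean was a probe set of Cd247, with linear means of 74.4 in GV, 66.0 in MI and 68.5 in MII. Bright probe sets of Lima1 and Usp49 counted as higher in MII on that scale, by 0.05 and 0.10, although their linear means were lower. They had 101 in GV and 86.4 in MII for Lima1, and 101 and 92.6 for Usp49. Probe sets of a gene share its RNA, so the 93 are not independent. The interval counts them as if they were and is likely too narrow.

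Of the 93 other probe sets, 6 (6.45%) met the rule themselves, against 0.430% (72 of 16752) of the other probe sets of all genes. They belonged to 4 genes: Pdlim5, Skp2, Tmtc3 and Usp45. Pdlim5 had 31.3, 76.9 and 67.1 in GV, 56.7, 33.3 and 11.5 in MI and 391, 687 and 1444 in MII on another probe set. That probe set orders the arrays much as above, and its suffix marks probes that may cross-match other sequences. A further one had 360.4, 290.3 and 483 in MII. The remaining probe sets of Pdlim5 did not meet the rule, with MII 2 values of 94.1, 42.3, 8.78 and 5.73. Skp2 had 555, 318 and 401 in MII against 90.1, 26.9 and 42.05 in GV on another probe set, and Usp45 had 278, 303 and 296 in MII against 48.8, 8.79 and 11.9 in GV, without the single high array of its brightest probe set. In 15 genes another probe set reached 100 or more on a GV array.

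For Arl14ep the choice of probe set decided its place in the set. Another of its probe sets was 99.7% as bright over the 9 arrays and had 335, 388 and 553 in GV, 553, 294 and 544 in MI and 741, 1265 and 859.9 in MII, so that it was above 200 on every array, and its MII minus GV difference was 1.13 on the log2 scale. Another probe set of Adcy9 was 93.6% as bright and had 182, 138 and 91.5 in GV, 79.2, 224 and 5.49 in MI and 132, 95.8 and 265 in MII, so that its stages overlapped, with an MII minus GV difference of 0.17. Arl14ep left the set when the brightest probe set was picked by mean log2 intensity, as did Pard6g and Tmem123, whereas 70 of the 73 genes stayed. The other probe set of Pard6g had 248, 350.2 and 188 in MII against 74.3, 64.6 and 143 in GV, and that of Prkci 416, 1165 and 361 in MII against 30.01, 34.2 and 196 in GV. Among the chosen probe sets, 7 (9.59%) had the suffix for probes that match several transcripts, which may be of different genes, against 4.88% over all genes. They were those of Adcy9, Cftr, Cyp4v3, Pdlim5, Prkci, Usp45 and Zfp654. The suffix for probes that may cross-match other sequences was found on 1, that of Mitd1 (1.37%), against 4.10% over all genes.

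**Figure D4:**
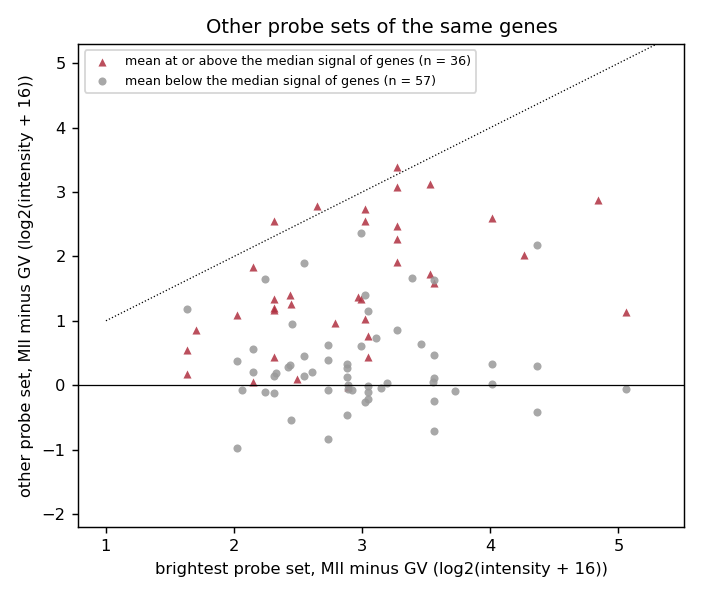
Each point is another probe set of a member gene, placed by the MII minus GV difference of the gene's brightest probe set (horizontal) and by its own (vertical), both on the log2(intensity + 16) scale, with the dotted line where both are equal. Of the 36 probe sets brighter by the mean over 9 arrays (triangles) 35 lie above 0, but most lie below the dotted line, while of the 57 dimmer ones (circles) 36 lie above 0.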

How the data were processed

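The deposited table gives linear intensity values of 45101 probe sets on 9 arrays, with 0 other columns of per-sample values. How the authors summarised probes, corrected background or scaled arrays is not given in the sources used here, and the table has no detection calls. Per the labels' protocols, polysome-bound mRNA was purified, reverse-transcribed, linearly amplified, fragmented and labelled with biotin. After 64 controls were left out, 34945 probe sets had 1 gene symbol in the platform annotation, 932 had several and 9160 none. For each of 18193 genes the probe set with the highest mean intensity over the 9 arrays was used, and 18032 gene identifiers were found in RefSeq (GRCm38.p6).

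Deposited intensity values were taken as log2(intensity + 16), and limma 3.58.1 (R 4.3.3) was run on the 18193 genes, with lmFit and eBayes and a mean for each stage, so that all 9 arrays share an estimate of the spread. Tests were two-sided, adjusted by Benjamini-Hochberg over all genes, with a threshold of 0.05. Log2 differences on this scale understate the change of dim genes. The code of the fit was also run on simulated data, and no result given here rests on that run. Alternatives were a pseudocount of 1, a filter on the 40% of genes with the lowest signal, quantile normalization, a common 95th percentile, a replicate block and leaving out each array.

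The member genes and the gene lists were chosen with earlier results of these data known. Named genes were fixed by rule: members with the 10 highest MII means, the 6 highest and 6 lowest MI means, the 10 largest MII minus GV differences, those next to the thresholds, and those in the lists, in symbol families or with agreeing or opposing probe sets. Roles, and the other members named with values, were chosen after their values were seen. The replicate numbers of the labels do not state a pairing: deviations of same-numbered arrays from their stage means correlated by 0.0008 to 0.223 over genes at or above the median signal.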

Additional observations from a re-analysis of the deposited data

How the results depend on the processing

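The 73 genes depend on where the thresholds stand. With a GV threshold of 50 there were 17 genes and with an MII threshold of 400 there were 21, and stricter limits can only remove genes. Leaving out 1 GV or MII array gave 101 to 166 genes, always with all 73 among them, since a rule on fewer arrays can only add genes. The count was 101 after quantile normalization and with a common 95th percentile, 72 with the brightest probe set picked by mean log2 intensity (chosen after seeing the data) and 83 when a gene's probe sets were averaged, of which 40 were among the 73. Higher values in MII than in MI were called in 26 of the 73 with a pseudocount of 1 and in 21 to 43 without 1 array. They were called in 44 without the 40% lowest-signal genes, in 52 after quantile normalization and in 53 with a common 95th percentile. The share of all tested genes called higher moved too. In the same order it was 1.03%, 0.989% to 2.41%, 4.01%, 4.50% and 4.25%, against 2.52% in the main fit. With the replicate block, used although the labels do not state a pairing, there were 39 such calls, beside 2.53% of all genes, and 0 from GV to MI. The rule required high MII values, so these counts support nothing. From GV to MI no member was called in any fit. Members present at MI numbered 1 after quantile normalization, 1 with a common 95th percentile, 5 with a limit of 150 and 5 to 6 without 1 MI array, and members low at MI 23 to 32 without 1 MI array. The agreement of other probe sets, 76.3% over all 93, was 97.2% at or above the median signal, a mean that includes the MII arrays, and 97.1% at or above the median MI signal, a split chosen after seeing the data. No called member changed sign in these fits. Values near background limit what can be said of the GV level of any single gene.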
